A study of Mus musculus with 12 samples.

Results

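The genes described here are the mouse tumour necrosis factor (TNF) ligands and TNF receptors whose symbols start with Tnfsf or Tnfrsf, followed through 4 subsets of thymocytes. A probe set of the array was taken where the platform annotation gave it exactly 1 gene symbol of that form. Tnfrsf4 and Tnfrsf18 were left out, and the probe sets of a gene were averaged, with those of Tnfrsf9 also shown singly. This gave 25 of the 18193 genes measured, from 44 probe sets, and 15 of the 25 were called different in at least 1 of 4 comparisons, against 58.0% of all genes. They are 17 receptors, 7 ligands and Tnfsf13os, an antisense RNA gene at a ligand locus.

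Thymocytes of untreated C57BL/6 mice were sorted by flow cytometry into DN cells (CD4-CD8a-TCRb-), DP cells (CD4+CD8a+), CD4SP cells (CD4+CD8a-TCRbhi) and CD8SP cells (CD4-CD8a+TCRbhi). Their total RNA, taken with Trizol with no culture step, was hybridised to 12 Affymetrix arrays, 3 per subset. Whether the 3 arrays of a subset stand for different animals is not labelled, and all p-values therefore rest on a spread between arrays that may be technical. The age and sex of the mice are not given in the sources used here.

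TNF ligands are mostly membrane proteins that act as trimers on receptors of neighbouring cells. Receptors with a death domain can start apoptosis through adaptors such as FADD and TRADD, and receptors without one bind TRAF proteins and switch on NF-κB and survival programmes. In the thymus, RANKL on maturing thymocytes acts on RANK of medullary epithelial cells, and costimulatory receptors of the family support T cells that have received an antigen receptor signal.

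The authors' values are log values, read here as log2, with the DP average of each probe set subtracted, so DP lies at 0 for every gene, and how strongly a gene is expressed cannot be read. A value says how far an array lies above or below DP for that gene, a difference is the mean of one subset minus the mean of another, and a fold is that difference read with base 2. Called means an adjusted p under 0.05 in limma over all 18193 genes. The sort genes followed the gates: Cd4, Cd8a and Cd8b1 were all higher in DP than in DN, Cd8a and Cd8b1 were lower in CD4SP than in DP, and Cd4 was lower in CD8SP than in DP. The DN gate has no positive marker, and list means of markers of other cells lay above DP on the DN arrays. On the DP arrays the means over the 4 lists of other blood cell markers were at most 0.18. Subtracting the DP average places them near 0 whatever cells the DP gate holds. On the DN arrays the mean over 15 myeloid and dendritic markers lay between 2.27 and 3.76, over 8 B cell markers between 0.40 and 2.26, over 8 NK and innate lymphoid markers between 1.14 and 2.28, and over 6 γδ T cell markers between 1.80 and 2.26. The members did not all move together. In the order given 9, 3, 7 and 5 of them were called lower in DP than in DN, against 18.8% of all genes. The γδ marker Il17a was called higher, and Pax5 (B cells) averaged -0.17 and Adgre1 (myeloid cells) -0.13 in DN. Some of these means were also above DP on single-positive arrays. The NK list read 1.15 to 1.25 in CD8SP, overlapping with DN, and -0.14 to 0.13 in CD4SP. Its members moved in opposite directions there. In CD8SP Klrd1 averaged 5.90, Eomes 4.73 and Prf1 0.94, but Klrk1 0.10, Tyrobp -0.09 and Gzma -2.96. In CD4SP Klrd1 and Eomes each averaged 1.44, and Gzma -4.13. The γδ list read 0.75 to 0.85 in CD4SP and 0.21 to 0.57 in CD8SP. The B cell and myeloid lists read at most 0.32 in both. Single members moved further. In CD4SP minus DP, 3 of 15 myeloid markers were called higher and 1 lower, against 16.4% and 16.2% of all genes. There Fcgr3 averaged 2.41 and Cd74 1.64, but S100a8 -1.18 and Cst3 -0.94. The B cell list read -0.59 to -0.39 in CD4SP, where Cd79b averaged -4.55 and was the 1 member called. Of 6 γδ markers Zbtb16 and Cd163l1 (1.84) were called higher in CD4SP, while Trgv4 averaged 0.26, Sox13 0.07 and Blk -0.03. DN replicate 1 was the lowest DN array in all 4 lists, and its mean over the 3 sort genes (-3.05) was nearer to DP than in the other DN arrays (-5.02 and -4.34). In RNA of sorted pools, fewer cells expressing a gene and less RNA per cell cannot be told apart.

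Tnfsf11, Tnfrsf9 and Tnfrsf25 showed the largest differences from DP in both single-positive subsets among the 25 genes, and their promoter windows are shown for that reason. Each window is the RefSeq sequence (GRCm38.p6) of 250 bases before to 50 bases after a transcription start, and 19 of the 25 genes had at least 1 window. Capitals mark matches to the NF-κB consensus or to the AP-1 motif TGANTCA on either strand, and windows without capitals hold neither.
Tnfsf11, chr14:78307994-78308293, minus strand: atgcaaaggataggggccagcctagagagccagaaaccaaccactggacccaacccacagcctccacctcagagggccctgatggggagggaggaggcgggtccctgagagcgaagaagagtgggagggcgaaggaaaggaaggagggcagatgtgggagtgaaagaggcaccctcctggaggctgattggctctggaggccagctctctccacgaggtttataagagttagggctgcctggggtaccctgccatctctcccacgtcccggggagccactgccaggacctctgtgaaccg
Tnfrsf9, upstream start, chr4:150919905-150920204, plus strand: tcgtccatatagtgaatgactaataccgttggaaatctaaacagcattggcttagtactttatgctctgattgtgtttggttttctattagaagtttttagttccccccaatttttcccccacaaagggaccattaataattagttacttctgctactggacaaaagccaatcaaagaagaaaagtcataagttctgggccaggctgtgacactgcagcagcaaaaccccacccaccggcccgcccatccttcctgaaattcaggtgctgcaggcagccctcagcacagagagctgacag
Tnfrsf9, downstream start, chr4:150927749-150928048, plus strand: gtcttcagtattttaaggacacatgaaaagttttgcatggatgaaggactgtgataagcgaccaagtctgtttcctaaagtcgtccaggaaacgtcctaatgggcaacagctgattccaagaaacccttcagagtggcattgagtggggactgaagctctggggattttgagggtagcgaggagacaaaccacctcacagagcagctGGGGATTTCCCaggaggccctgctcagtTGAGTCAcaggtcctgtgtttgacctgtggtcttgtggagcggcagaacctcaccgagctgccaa
Tnfrsf25, upstream start, chr4:152115684-152115983, plus strand: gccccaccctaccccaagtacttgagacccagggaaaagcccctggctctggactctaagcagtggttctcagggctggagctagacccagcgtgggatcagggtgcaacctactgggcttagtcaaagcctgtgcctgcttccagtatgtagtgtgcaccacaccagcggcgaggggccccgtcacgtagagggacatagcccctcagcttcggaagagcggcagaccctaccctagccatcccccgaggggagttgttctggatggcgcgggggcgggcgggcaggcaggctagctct
Tnfrsf25, downstream start, chr4:152116093-152116392, plus strand: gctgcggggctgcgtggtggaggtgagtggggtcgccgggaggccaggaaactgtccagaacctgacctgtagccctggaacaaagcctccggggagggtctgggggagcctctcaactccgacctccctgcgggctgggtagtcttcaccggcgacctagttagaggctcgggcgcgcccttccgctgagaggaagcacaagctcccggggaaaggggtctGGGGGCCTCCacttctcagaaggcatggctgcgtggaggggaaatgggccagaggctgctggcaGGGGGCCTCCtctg
The downstream Tnfrsf9 window held a pair of overlapping NF-κB matches, at -43 and -42 from the start, and an AP-1 match at -15. The downstream Tnfrsf25 window held GGGGGCCTCC at both -28 and 36. NF-κB matches occurred in 3 of the 23 windows of the gene group, against 8.46% of all 32851 mouse promoter windows, and AP-1 matches in 5 of 23, against 7.81%. The AP-1 count includes overlapping windows of Tnfsf13b that hold the same site, at 39 from one start and -127 from the other. A match describes the letters of the window and is no evidence of binding.

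**Figure D1:**
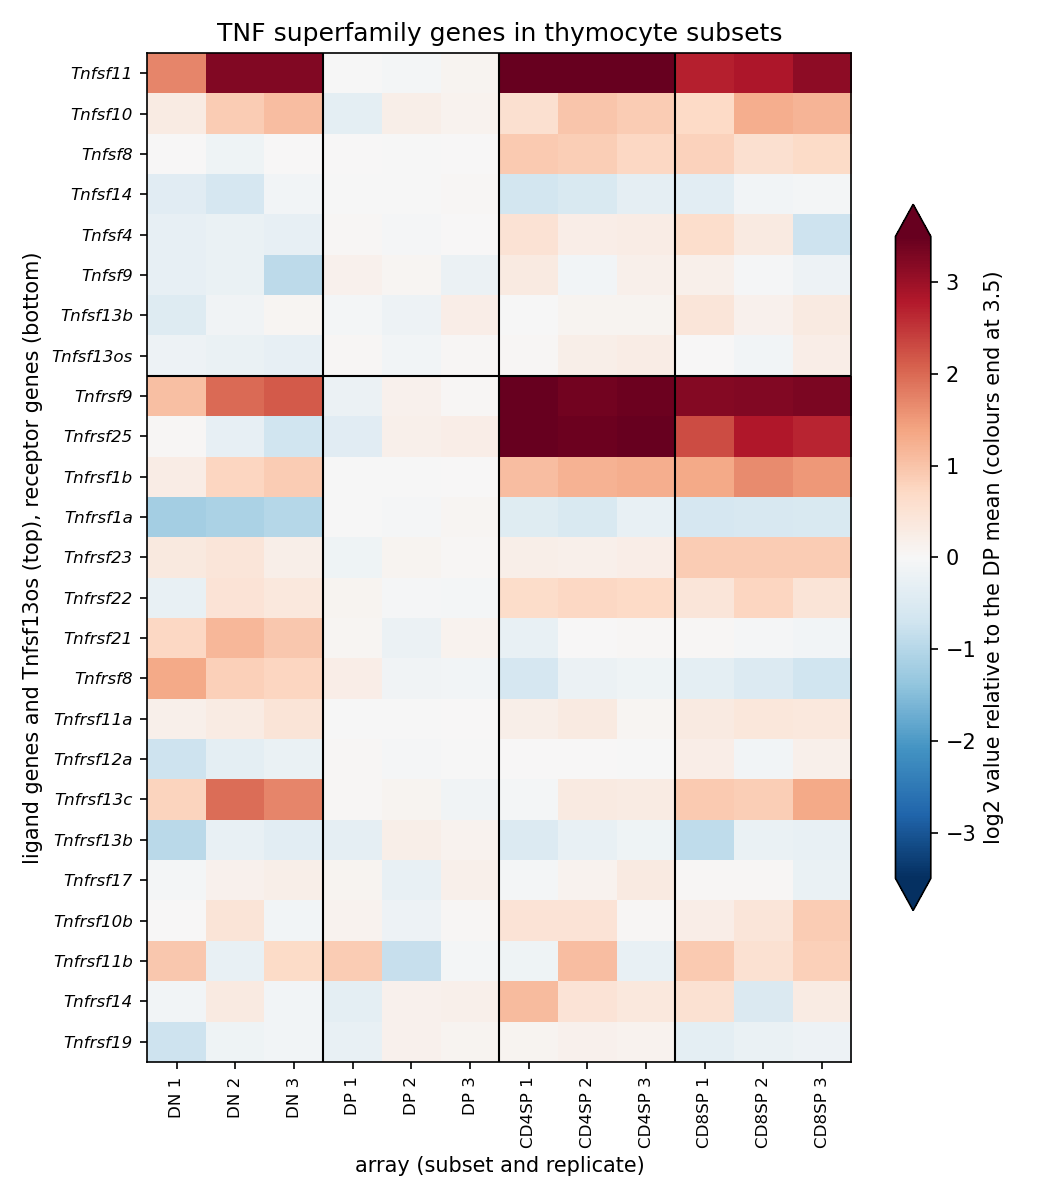
Heat map of the 25 Tnfsf and Tnfrsf genes (rows, ligand genes with Tnfsf13os above receptor genes) on the 12 arrays (columns, in the order DN, DP, CD4SP, CD8SP), coloured by log2 value relative to the DP mean, with the darkest colour for all values past the end of the scale. Tnfsf11, Tnfrsf9 and Tnfrsf25 stand out on the 6 single-positive arrays, with Tnfsf11 and Tnfrsf9 also above DP on all 3 DN arrays.

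Among the ligands, Tnfsf11, Tnfsf10 and Tnfsf8 rose in both single-positive subsets relative to DP. Tnfsf11 encodes RANKL, the ligand by which maturing thymocytes act on medullary epithelium. Its values were 1.71, 3.25 and 3.24 on the DN arrays, -0.02, -0.08 and 0.09 on the DP arrays, 4.73, 4.75 and 4.81 on the CD4SP arrays and 2.72, 2.82 and 3.12 on the CD8SP arrays. All CD4SP arrays lay above all CD8SP arrays, both lay above DP, and the DN arrays overlapped with CD8SP only. The mean was 4.77 ± 0.04 in CD4SP against 0.00 ± 0.09 in DP (SD, n = 3 each), a difference of 4.77 ± 0.33 (SE), or 27.2-fold, with an adjusted p of 1.37e-06. In CD8SP it averaged 2.89 ± 0.21 (SD, n = 3), which was 7.39-fold above DP (difference 2.89 ± 0.33, adjusted p = 4.74e-05).

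CD4SP cells also had more Tnfsf11 RNA than CD8SP cells, by 1.88 ± 0.33 or 3.68-fold (adjusted p = 0.00424). DP cells had less than DN cells, by -2.73 ± 0.33 or 6.64-fold (adjusted p = 8.06e-05), and by -3.24 without DN replicate 1, the DN array with the lowest value. Both Tnfsf11 probe sets were called in all 4 comparisons, with CD4SP minus DP differences of 5.64 for 1419083_at and 3.89 for 1451944_a_at. All 4 calls of the gene held in each of the 23 alternative analyses.

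Tnfsf10 encodes TRAIL, a ligand that can induce apoptosis through death receptors. Its values were 0.28, 0.88 and 1.08 in DN, -0.34, 0.21 and 0.13 in DP, 0.55, 0.98 and 0.90 in CD4SP and 0.71, 1.27 and 1.20 in CD8SP. Replicate 1 was the lowest array of each subset, and every array of the other subsets lay above every DP array. The CD8SP minus DP difference was 1.06 ± 0.23, or 2.08-fold (adjusted p = 0.00415). In CD4SP minus DP the difference was 0.81 ± 0.23 (adjusted p = 0.0209), and it was 0.64 without DP replicate 1 (adjusted p = 0.0816), 0.72 without CD4SP replicate 2 (0.0762) and 0.77 without CD4SP replicate 3 (0.065). The DP minus DN difference of -0.75 ± 0.23 (adjusted p = 0.0277) was -0.68 without DN replicate 2 (adjusted p = 0.0865), -0.58 without DN replicate 3 (0.102) and -0.58 without DP replicate 1 (0.105). Quantile normalization, which gives the narrow DP arrays the spread of the others and lowers the calls over all genes, ended all 3 calls (adjusted p between 0.16 and 0.345). The probe set of smallest spread ended the CD4SP and DN calls (adjusted p of 0.0955 and 0.08).

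Tnfsf8 encodes CD30 ligand. It rose in CD4SP relative to DP by 0.84 ± 0.09 (adjusted p = 3.53e-05) and in CD8SP by 0.69 ± 0.09 (adjusted p = 1.29e-04), with values of 0.72 to 0.92 in CD4SP and 0.57 to 0.82 in CD8SP, against -0.01 to 0.01 in DP. Its receptor gene Tnfrsf8 (CD30), a TRAF-binding receptor, was lower in DP than in DN by -0.97 ± 0.18 (adjusted p = 0.00155). Tnfrsf8 was also called lower in CD8SP than in DP, by -0.51 ± 0.18 (adjusted p = 0.0461), a call that 12 of the 23 alternatives ended. Those include leaving out DP replicate 1 (-0.40), DP replicate 2 (-0.57), DP replicate 3 (-0.56), CD8SP replicate 2 (-0.52) or CD8SP replicate 3 (-0.41), with adjusted p between 0.0626 and 0.154, and leaving out DN replicate 2, CD4SP replicate 2 or CD4SP replicate 3 (each -0.51, adjusted p between 0.0537 and 0.0572).

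Tnfsf14 encodes LIGHT, a ligand of HVEM and of the lymphotoxin β receptor. It was the only ligand called lower in a single-positive subset, with a CD4SP minus DP difference of -0.49 ± 0.14 (adjusted p = 0.0177). The difference was -0.48 without DP replicate 3 (adjusted p = 0.0536), -0.41 without CD4SP replicate 1 (0.0678) and -0.47 without CD4SP replicate 2 (0.0556). The ligand genes Tnfsf4 (OX40 ligand), Tnfsf9 (4-1BB ligand) and Tnfsf13b (BAFF, a B cell survival factor) were called in 0 of the 4 comparisons, with differences between -0.23 and 0.48.

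**Figure D2:**
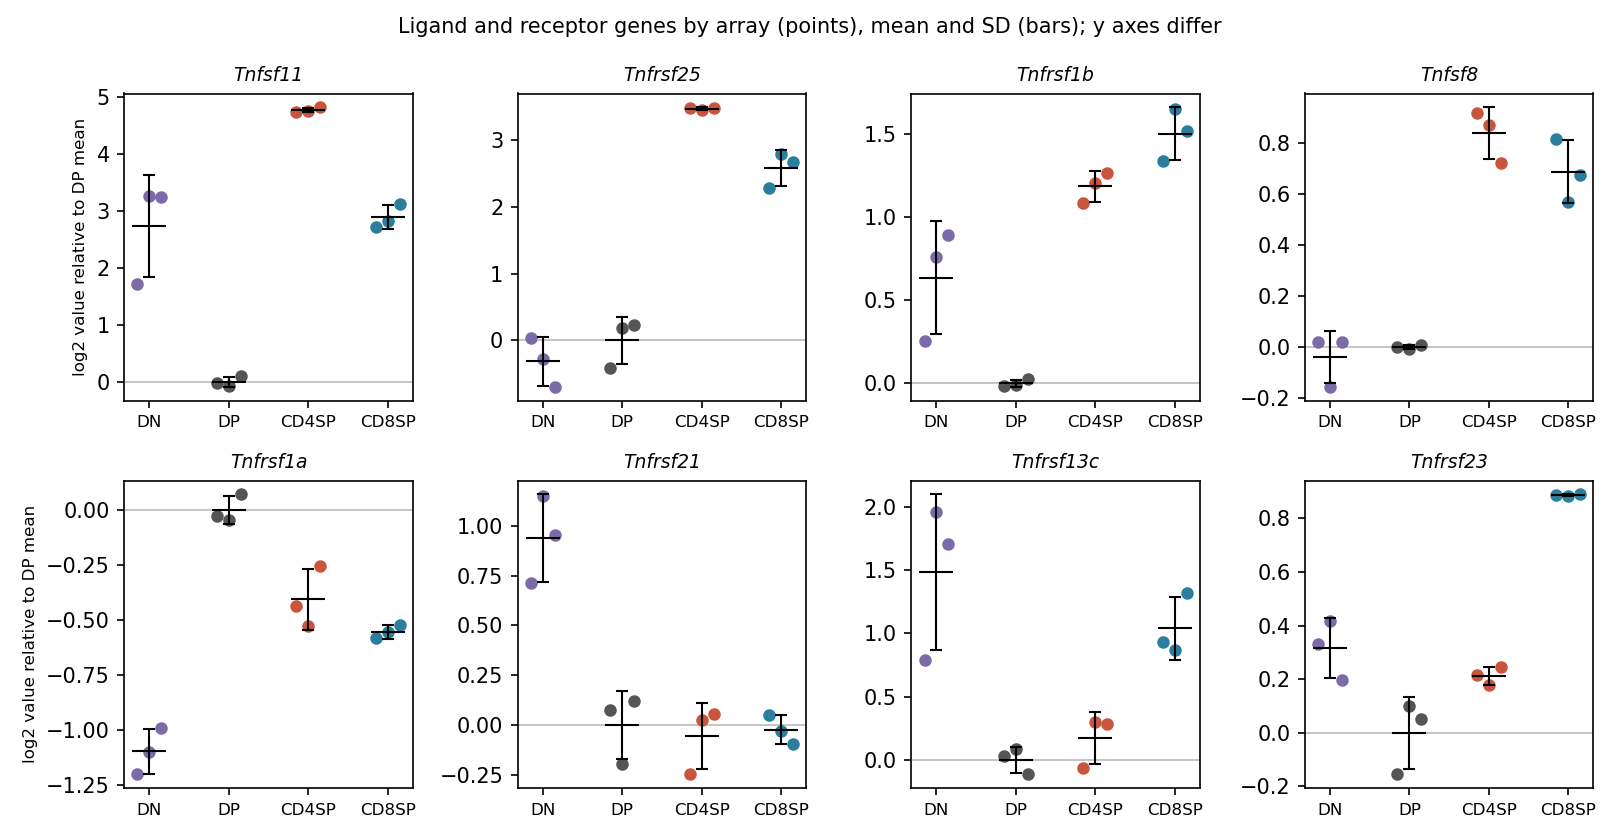
Log2 value relative to the DP mean (vertical axis, a different range in each panel) of 8 ligand and receptor genes with called differences, chosen after their values were seen. Points are arrays, and bars are the mean and SD of 3 arrays in DN, DP, CD4SP and CD8SP: Tnfsf11 separates CD4SP (4.73 to 4.81) from CD8SP (2.72 to 3.12), and Tnfrsf1a is highest in DP.

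Among the costimulatory receptors, Tnfrsf9 (4-1BB, a TRAF-binding receptor induced on activated T cells) had its highest values in the single-positive subsets. The gene mean was 1.05, 1.98 and 2.15 in DN, -0.20, 0.16 and 0.04 in DP, 3.56, 3.37 and 3.43 in CD4SP and 3.21, 3.24 and 3.29 in CD8SP. The 6 single-positive arrays lay above all DN arrays, which lay above all DP arrays. The difference was 3.45 ± 0.23 or 11.0-fold in CD4SP minus DP (adjusted p = 1.09e-06), 3.24 ± 0.23 or 9.47-fold in CD8SP minus DP (adjusted p = 1.57e-06) and -1.73 ± 0.23 or 3.32-fold in DP minus DN (adjusted p = 1.69e-04). Without DN replicate 1 the DP minus DN difference was -2.07. CD4SP and CD8SP differed by 0.21 (95% interval -0.30 to 0.72, adjusted p = 0.625).

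The 3 Tnfrsf9 probe sets differed from each other, and the gene mean averages over them. Probe set 1460469_at read 2.42, 3.84 and 4.07 in DN, 0.51, -0.47 and -0.04 in DP, 5.94, 5.65 and 5.73 in CD4SP and 5.32, 5.57 and 5.51 in CD8SP. It was 54.7-fold higher in CD4SP than in DP (adjusted p = 8.45e-07), 44.2-fold higher in CD8SP than in DP (adjusted p = 1.14e-06) and 10.9-fold lower in DP than in DN (adjusted p = 3.83e-05). Adjustment here was over all 34945 probe sets.

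Probe set 1428034_a_at read 1.31, 2.80 and 2.94 in DN, -1.18, 1.02 and 0.15 in DP, 4.93, 4.74 and 5.01 in CD4SP and 4.29, 4.62 and 4.61 in CD8SP. Its order of subsets was that of 1460469_at, with DP arrays from -1.18 to 1.02. It was 29.7-fold higher in CD4SP than in DP (adjusted p = 3.20e-05), 22.8-fold higher in CD8SP than in DP (adjusted p = 5.03e-05) and lower in DP than in DN by -2.35 ± 0.52 (adjusted p = 0.00433). Under quantile normalization none of the 3 differences of this probe set passed, with adjusted p of 0.0541, 0.0791 and 0.375.

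Probe set 1421481_at had a different pattern. It read -0.58, -0.69 and -0.55 in DN, 0.06, -0.07 and 0.01 in DP, -0.19, -0.27 and -0.45 in CD4SP and 0.02, -0.48 and -0.27 in CD8SP. DP exceeded DN by 0.61 ± 0.13 (adjusted p = 0.00303), opposite to the other probe sets, while CD4SP minus DP was -0.30 (adjusted p = 0.0948) and CD8SP minus DP was -0.24 (adjusted p = 0.157). Tnfrsf9 was the 1 gene of the group with probe sets called in opposite directions. In that DP minus DN comparison 5 of the 44 probe sets were called higher and 14 lower, against 18.9% and 17.8% of all probe sets.

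**Figure D3:**
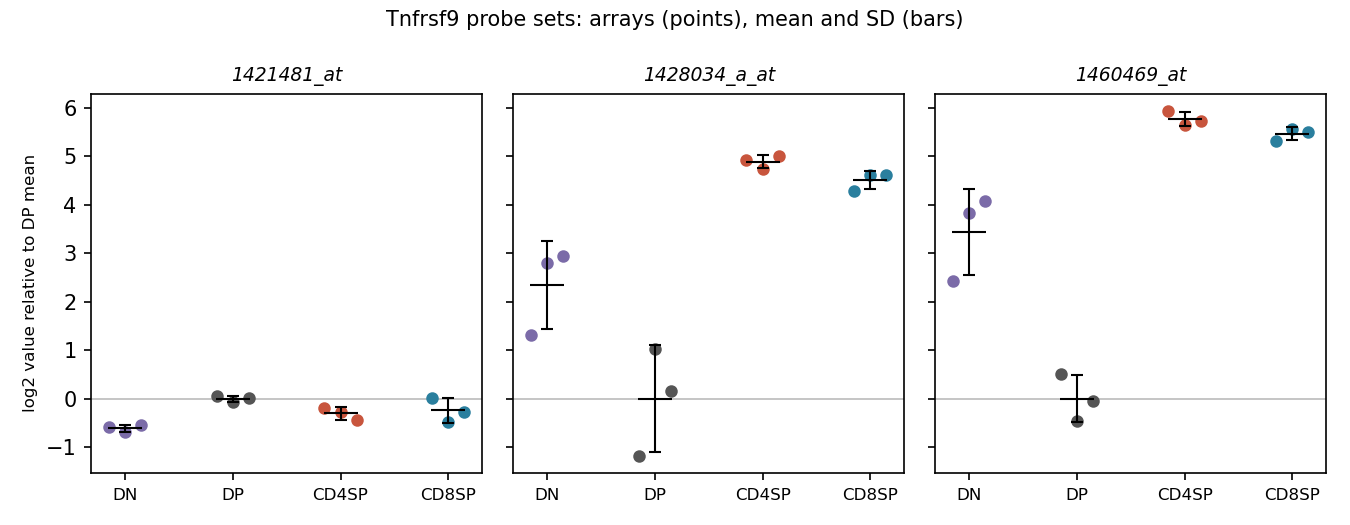
Log2 value relative to the DP mean of the 3 Tnfrsf9 probe sets (panels, one vertical scale) in DN, DP, CD4SP and CD8SP. Points are arrays and bars are the mean and SD of 3 arrays: 1428034_a_at and 1460469_at lie above 4 on all single-positive arrays, while 1421481_at stays between -0.69 and 0.06 on all 12.

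Tnfrsf1b encodes TNF receptor 2, which lacks a death domain and binds TRAF2. Its values were 0.25, 0.76 and 0.89 in DN, -0.01, -0.01 and 0.02 in DP, 1.08, 1.21 and 1.26 in CD4SP and 1.33, 1.65 and 1.51 in CD8SP. No arrays overlapped between any 2 subsets, and the order of the means was DP, DN, CD4SP, CD8SP. It rose in CD4SP relative to DP by 1.18 ± 0.15 (2.27-fold, adjusted p = 1.08e-04), in CD8SP relative to DP by 1.50 ± 0.15 (2.83-fold, adjusted p = 1.69e-05) and was lower in DP than in DN by -0.63 ± 0.15 (adjusted p = 0.00634). The CD4SP minus CD8SP difference of -0.32 had a 95% interval of -0.65 to 0.01 (adjusted p = 0.209).

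Tnfrsf13c encodes the BAFF receptor, best known from B cells. Its values were 0.79, 1.95 and 1.70 in DN, 0.03, 0.08 and -0.11 in DP, -0.06, 0.30 and 0.28 in CD4SP and 0.93, 0.87 and 1.32 in CD8SP. CD4SP overlapped with DP, and all DN and CD8SP arrays lay above both. It was lower in DP than in DN by -1.48 ± 0.25 (2.80-fold, adjusted p = 9.17e-04) and higher in CD8SP than in DP by 1.04 ± 0.25 (2.05-fold, adjusted p = 0.00774). CD4SP minus CD8SP was -0.86 ± 0.25 with an adjusted p of 0.05, which did not pass. That difference was called in 10 of the 23 alternatives, among them the 6 arrays compared alone (adjusted p = 0.0276), array weights (-0.81, 0.0259) and leaving out DN replicate 1 (-0.86, 0.00433) or DN replicate 2 (-0.86, 0.0336). The B cell marker mean of the CD8SP arrays was 0.01 to 0.13, against -0.06 to 0.04 in DP. In CD8SP minus DP 0 of 8 B cell markers were called, against 18.2% of all genes higher and 20.9% lower. Their standard errors ran from 0.11 (Pax5) to 0.71 (Fcer2a), and the part of B cells in the CD8SP value was not tested. In DN the Tnfrsf13c values were lowest on replicate 1, as the mean over the B cell markers was (0.40, against 2.26 and 1.91), and the part of B cells in the DN value was not tested. The other BAFF-family receptor genes, Tnfrsf13b (TACI) and Tnfrsf17 (BCMA), were called in 0 comparisons.

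Among the death domain receptors, Tnfrsf25 and Tnfrsf1a moved in opposite directions in single-positive cells. Tnfrsf25 encodes death receptor 3, a costimulatory receptor on T cells. Its 1 probe set read 0.03, -0.28 and -0.70 in DN, -0.41, 0.18 and 0.22 in DP, 3.47, 3.44 and 3.47 in CD4SP and 2.27, 2.79 and 2.66 in CD8SP. DN and DP overlapped, while all CD4SP arrays lay above all CD8SP arrays and both above the rest. The difference was 3.46 ± 0.21 or 11.0-fold in CD4SP minus DP (adjusted p = 5.77e-07) and 2.58 ± 0.21 or 5.96-fold in CD8SP minus DP (adjusted p = 4.58e-06).

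CD4SP cells exceeded CD8SP cells in Tnfrsf25 by 0.89 ± 0.21 (adjusted p = 0.0205). That call was lost without CD4SP replicate 1 (0.88, adjusted p = 0.059), CD4SP replicate 2 (0.90, 0.0576), CD4SP replicate 3 (0.88, 0.0646) or CD8SP replicate 1 (0.73, 0.057), and under quantile normalization (0.65, adjusted p = 0.712).

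Tnfrsf1a encodes TNF receptor 1, the main death domain receptor for TNF. It read -1.20, -1.10 and -0.99 in DN, -0.03, -0.04 and 0.07 in DP, -0.44, -0.53 and -0.25 in CD4SP and -0.58, -0.56 and -0.52 in CD8SP. All DP arrays lay above all other arrays, and all DN arrays below. It was higher in DP than in DN by 1.10 ± 0.09 (2.14-fold, adjusted p = 4.93e-06), lower in CD4SP than in DP by -0.41 ± 0.09 (adjusted p = 0.00492) and lower in CD8SP than in DP by -0.55 ± 0.09 (adjusted p = 5.47e-04).

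Tnfrsf21 encodes death receptor 6. It was lower in DP than in DN by -0.94 ± 0.13 (adjusted p = 2.40e-04), with DP arrays between -0.20 and 0.12 and DN arrays between 0.71 and 1.15, and neither single-positive subset was called against DP. Tnfrsf10b, the mouse TRAIL death receptor, was called in 0 comparisons as the mean of its probe sets, with a CD8SP minus DP difference of 0.51 (95% interval 0.07 to 0.95, adjusted p = 0.0641). Its 2 probe sets differed. Probe set 1422344_s_at was called higher in CD4SP than in DP by 0.73 ± 0.20 (adjusted p = 0.0157) and in CD8SP than in DP by 0.88 ± 0.20 (adjusted p = 0.00455), while 1421296_at was called in 0 comparisons (-0.06 and 0.14 in the same order). The gene was also called in CD8SP minus DP with array weights (0.57, adjusted p = 0.0275), without CD8SP replicate 1 (0.66, 0.0331) and without DN replicate 2 (0.51, 0.0497).

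Mouse Tnfrsf22 and Tnfrsf23 encode decoy receptors for TRAIL that lack a death domain. They are near-identical neighbours, and 1 probe set annotated to both was not used, so the split between them is uncertain. Tnfrsf22 rose in CD4SP relative to DP by 0.69 ± 0.17 (adjusted p = 0.00969) and in CD8SP by 0.54 ± 0.17 (adjusted p = 0.0295). Of its 3 probe sets, 1426095_a_at was called in both comparisons, and taking the probe set of highest mean or of smallest spread in place of the average ended both calls (adjusted p between 0.0616 and 0.89). The CD8SP call was lost without DP replicate 2 (0.52, adjusted p = 0.0768), DP replicate 3 (0.50, 0.0842) or CD8SP replicate 2 (0.43, 0.105).

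Tnfrsf23 read 0.33, 0.42 and 0.20 in DN, -0.15, 0.10 and 0.05 in DP, 0.22, 0.18 and 0.24 in CD4SP and 0.89, 0.88 and 0.89 in CD8SP. The CD8SP arrays lay above all others. It rose in CD8SP relative to DP by 0.89 ± 0.09 (adjusted p = 1.57e-05), and CD4SP was lower than CD8SP by -0.67 ± 0.09, or 1.59-fold (adjusted p = 7.89e-04). CD4SP minus DP was 0.21 (adjusted p = 0.0881), and with the shared probe set added it was 0.97 and called (adjusted p = 7.77e-04). With the shared probe set added, the CD4SP minus CD8SP difference was -0.38 (adjusted p = 0.166), and under quantile normalization it was -0.56 (adjusted p = 0.135). Tnfrsf23 was also lower in DP than in DN by -0.32 ± 0.09 (adjusted p = 0.015), a call lost without DN replicate 2 (-0.26, adjusted p = 0.0645) or DP replicate 1 (-0.24, 0.0592).

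A pair of further receptors had small called differences. Tnfrsf11a encodes RANK, the receptor of RANKL, and was lower in DP than in DN by -0.30 ± 0.09 (adjusted p = 0.0237) and higher in CD8SP than in DP by 0.35 ± 0.09 (adjusted p = 0.0103). Its probe sets differed: 1430259_at was called in both comparisons, with -0.69 and 0.65, and 1419214_at in neither. The DP minus DN call was lost without DN replicate 2 (-0.31), DN replicate 3 (-0.23) or any DP array (-0.30, -0.30 and -0.31), with adjusted p between 0.0557 and 0.0916.

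Tnfrsf12a, which encodes the TWEAK receptor Fn14, was higher in DP than in DN by 0.43 ± 0.13 (adjusted p = 0.0228). The difference was 0.28 without DN replicate 1 (adjusted p = 0.0692), 0.40 without DP replicate 1 (0.0672) and 0.44 without DP replicate 3 (0.0538). Its 2 probe sets differed: 1418572_x_at was called, with 0.65 ± 0.13 (adjusted p = 0.00301), and 1418571_at was not, with 0.21 ± 0.16 (adjusted p = 0.356). Taking only 1418571_at, the probe set of highest mean, in place of the average gave 0.21 for the gene (adjusted p = 0.371).

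In all, 10 of the 25 genes were called in 0 comparisons by limma: the ligand genes and receptors named above (Tnfsf4, Tnfsf9, Tnfsf13b, Tnfrsf10b, Tnfrsf13b and Tnfrsf17), Tnfsf13os, Tnfrsf11b (osteoprotegerin, the soluble decoy receptor for RANKL), Tnfrsf14 (HVEM) and Tnfrsf19 (TROY). Of these, 8 passed the threshold in some comparison under at least 1 of the 23 alternatives, and Tnfrsf11b and Tnfrsf17 under none. The share of all uncalled genes that did so was not counted. Tnfrsf14 had the largest CD4SP minus DP difference of the 10 genes, 0.65 (95% interval 0.03 to 1.26, adjusted p = 0.106). Tnfrsf11b varied widely within subsets, with DP arrays from -0.81 to 0.89, and its CD8SP minus DP interval ran from -0.29 to 1.79.

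Counted over the group, DP minus DN had 2 of 25 genes higher and 9 lower, against 17.8% and 18.8% of all genes, and the median difference was -0.10, against 0.04 over all genes. The split of all calls moved with the scaling: 48.6% were higher as deposited, 38.1% after quantile normalization and 38.4% after median centring. Of the receptors 2 were higher and 7 lower of 17, and of the ligands 0 were higher and 2 lower of 7. Of the 9 genes lower in DP than in DN, 7 had their lowest DN value on replicate 1 (Tnfsf11, Tnfrsf9, Tnfrsf13c, Tnfrsf1b, Tnfsf10, Tnfrsf21 and Tnfrsf11a), where the list means of B, NK, myeloid and γδ T cell markers were also lowest. Tnfrsf23 had its middle DN value there (0.33), and Tnfrsf8 its highest (1.34, against 0.83 and 0.75 on the other DN arrays). The part of those cells in the DN values was not tested. How often replicate 1 was the lowest DN array over all genes was not counted. Its median over all probe sets was also the lowest in DN (-0.096, against -0.0785 and -0.0475). Without that array all 9 genes were called again. The differences of the 7 genes were then larger in size (-3.24, -2.07, -1.83, -0.83, -0.98, -1.05 and -0.37 in the order above), and those of Tnfrsf23 (-0.31) and Tnfrsf8 (-0.79) smaller. These directions are fixed by arithmetic, since leaving out a value below the DN mean raises that mean and leaving out one above lowers it. They say nothing about other cells in DN.

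CD4SP minus DP had 7 of 25 genes higher and 2 lower, against 16.4% and 16.2% of all genes, with a median of 0.21 against 0.04. CD8SP minus DP had 10 higher and 2 lower, against 18.2% and 20.9% of all genes, with a median of 0.29 against 0.00. These comparisons share the DP arrays. The genes higher in CD4SP were Tnfsf11, Tnfsf10, Tnfsf8, Tnfrsf9, Tnfrsf25, Tnfrsf1b and Tnfrsf22, and those higher in CD8SP were these genes with Tnfrsf13c, Tnfrsf23 and Tnfrsf11a. A called rise of at least 2-fold was seen in 4 of the 25 genes in CD4SP, against 4.73% of all genes, and in 6 in CD8SP, against 4.97%.

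CD4SP minus CD8SP had 2 genes higher (Tnfsf11 and Tnfrsf25) and 1 lower (Tnfrsf23), against 7.78% and 4.91% of all genes, with a median of 0.14 against 0.03. Of all calls in this comparison 61.3% were higher as deposited, 43.4% after quantile normalization and 47.6% after median centring. The mean over 7 regulatory T cell markers lay between 1.13 and 1.40 in DN, between -0.04 and 0.03 in DP, between 1.24 and 1.34 in CD4SP and between 0.46 and 0.60 in CD8SP, so DN and CD4SP overlapped. Its members did not move together: Gpr83 differed from DP by 4.40 in CD4SP and 3.40 in CD8SP, Ikzf4 by 2.96 and 2.60, and Nrp1 by -1.81 and -3.62. The highest member in DN was Il2ra, with a mean of 4.56 there against 0.66 in CD4SP, while Foxp3 averaged -0.17 in DN. Foxp3, the defining regulator of these cells, was 0.49 ± 0.16 higher in CD4SP than in DP (adjusted p = 0.0351), and its CD4SP minus CD8SP difference was 0.33 (adjusted p = 0.215). Their part in the CD4SP values was not tested.

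**Figure D4:**
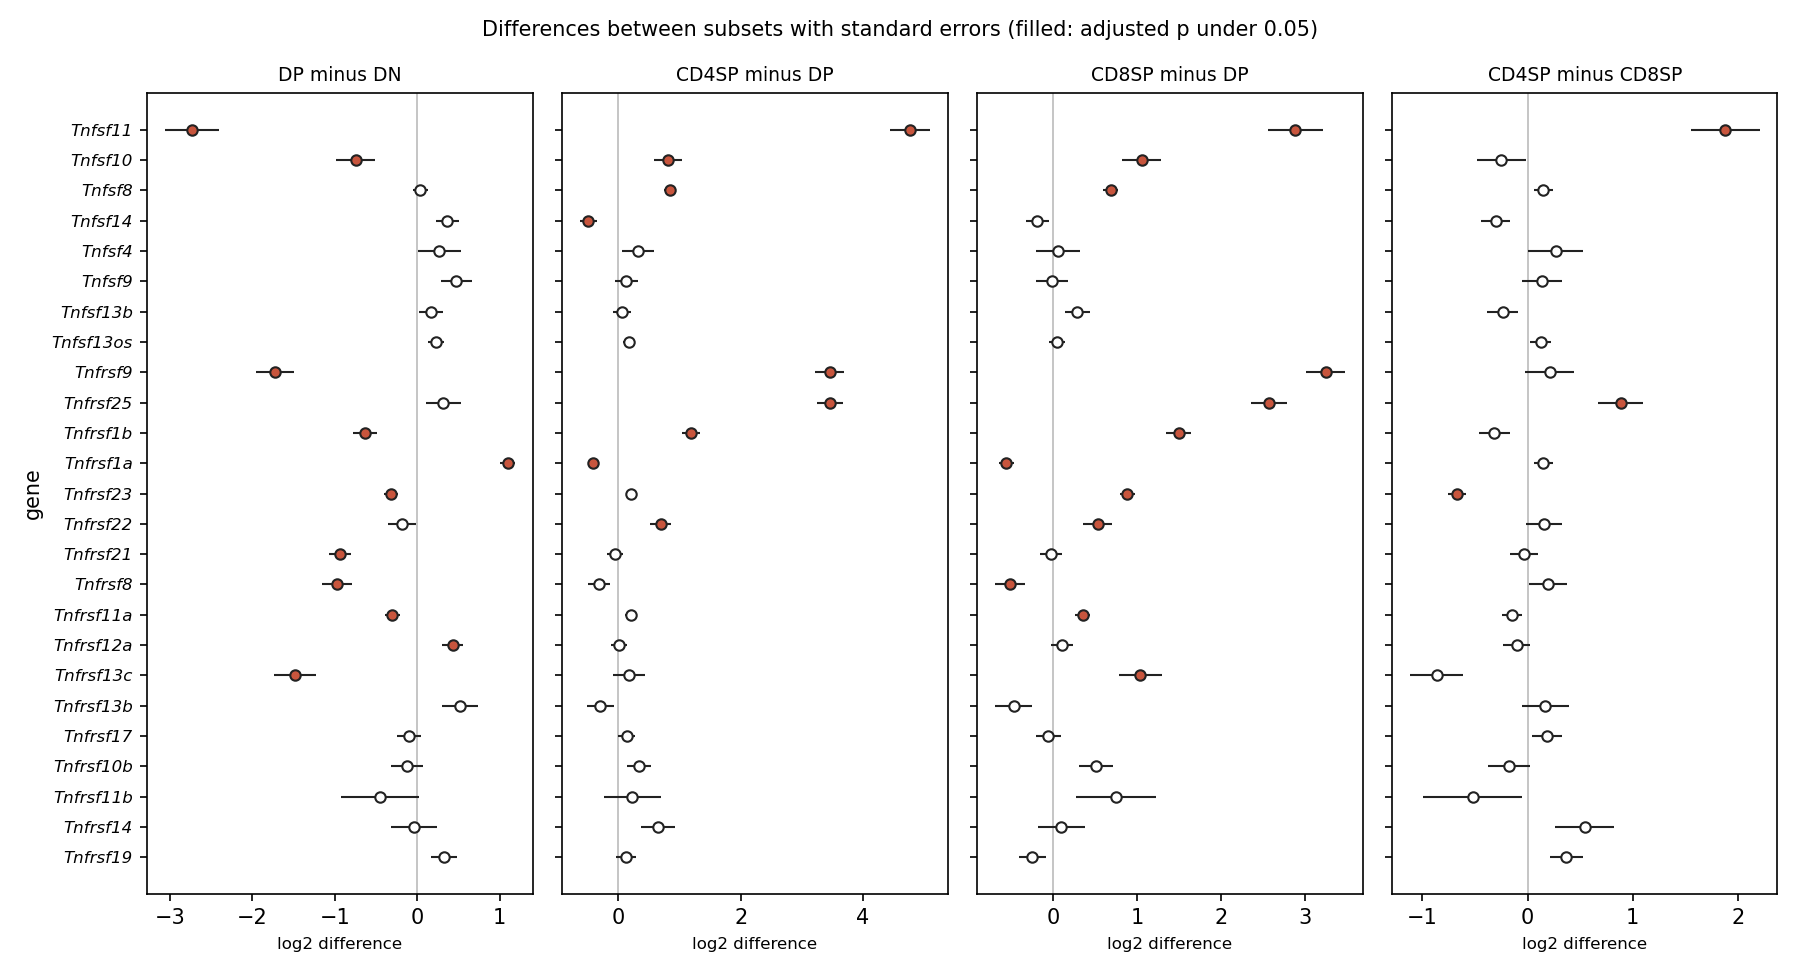
Log2 difference of each of the 25 genes in the 4 comparisons (panels), with bars of 1 standard error and filled symbols where the adjusted p was under 0.05. Tnfsf11, Tnfrsf25 and Tnfrsf9 lie farthest to the right in both comparisons of single-positive cells with DP (4.77, 3.46 and 3.45 in CD4SP).

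The other TNF family genes, whose symbols do not start with Tnfsf or Tnfrsf, were counted from a list of 15, all measured. In CD4SP minus DP 6 were higher and 2 lower, against 16.4% and 16.2% of all genes. Those with the lowest adjusted p were Tnf (1.75 ± 0.13, adjusted p = 2.78e-06), Relt, a TNF receptor family member (0.997 ± 0.09, 6.69e-06), Lta, which encodes lymphotoxin α (3.78 ± 0.45, 6.79e-05), and the death receptor gene Fas (-0.96 ± 0.13, 1.45e-04). In CD8SP minus DP 4 were higher and 2 lower, against 18.2% and 20.9% of all genes. Relt was at 1.05 ± 0.09 (4.17e-06), Tnf at 1.36 ± 0.13 (1.59e-05), Fas at -1.22 ± 0.13 (2.17e-05) and Lta at 3.51 ± 0.45 (1.01e-04).

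In DP minus DN 4 of the 15 were higher and 2 lower, against 17.8% and 18.8% of all genes. Fas was higher in DP than in DN by 3.20 ± 0.13 (adjusted p = 4.73e-08) and Cd27, a costimulatory receptor, by 1.37 ± 0.16 (6.42e-05), while the Fas ligand gene Fasl was lower by -0.94 ± 0.14 (3.53e-04) and Edar, the ectodysplasin receptor gene, was higher by 0.33 ± 0.08 (0.00801). Fas and Tnfrsf1a thus had the same order, with DP above CD4SP, CD4SP above CD8SP, and DN lowest, although neither gene was called between CD4SP and CD8SP. In CD4SP minus CD8SP 2 were higher and 0 lower, against 7.78% and 4.91% of all genes. These were Cd40lg, which encodes the T cell ligand for CD40 on B cells and dendritic cells (1.25 ± 0.20, adjusted p = 0.00241), and Fasl (0.86 ± 0.14, 0.00275).

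**Figure D5:**
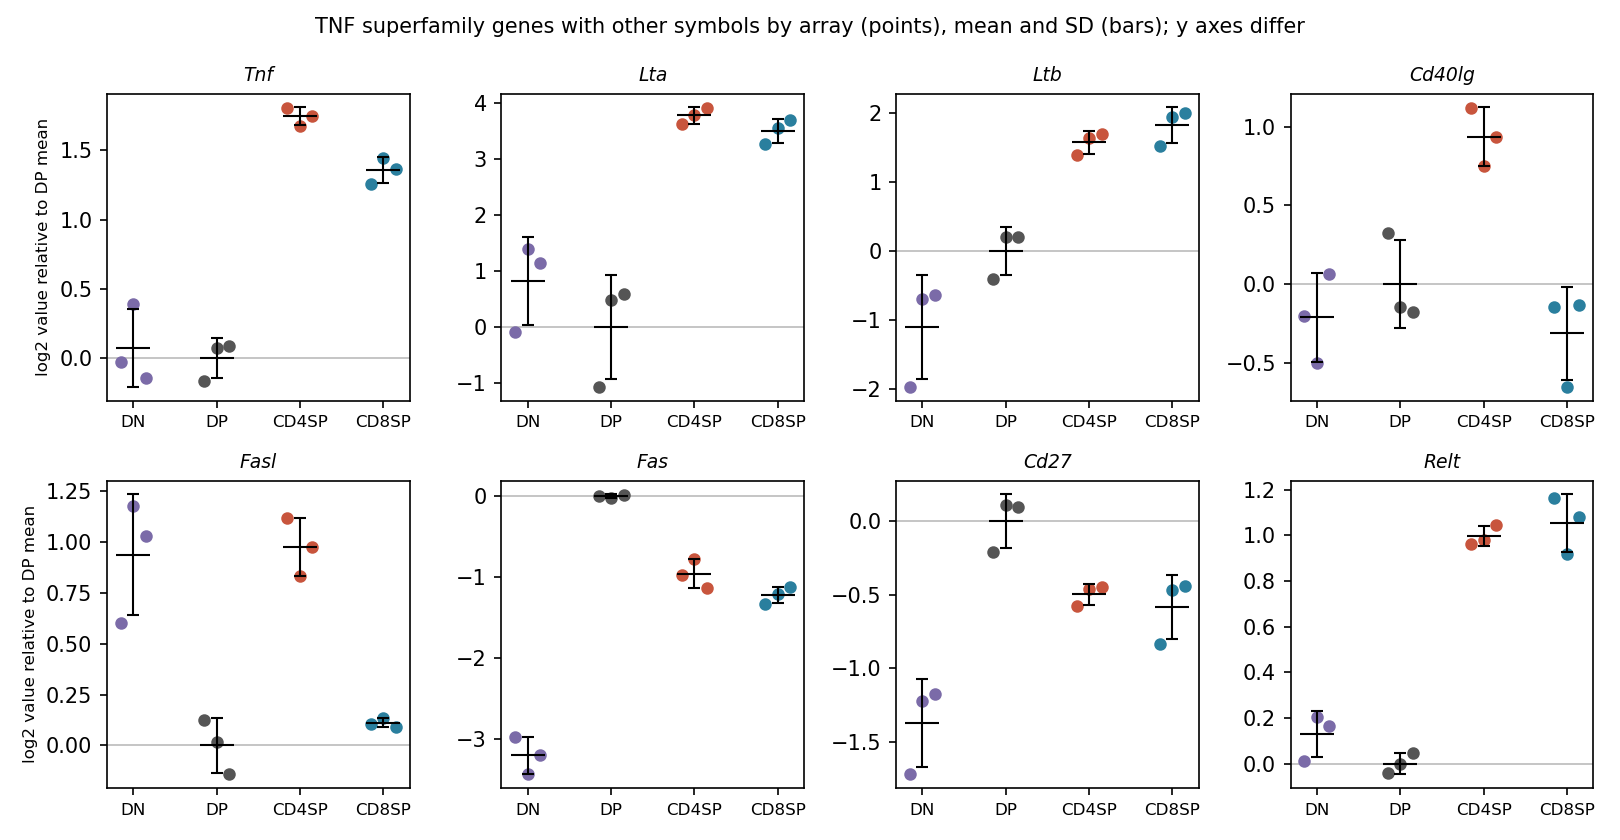
Log2 value relative to the DP mean (vertical axis, a different range in each panel) of 8 of the TNF family genes with other symbols, chosen after their values were seen, in DN, DP, CD4SP and CD8SP. Points are arrays and bars are the mean and SD of 3 arrays: Tnf, Lta and Relt lie above DP on all 6 single-positive arrays, Fas lies below DP on all other arrays, and Cd40lg is above DP in CD4SP only.

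Of 26 adaptors and signalling proteins next to the receptors, 24 were measured. In DP minus DN 11 were higher and 2 lower, against 17.8% and 18.8% of all genes. The calls were led by Tnfaip3, which encodes the NF-κB inhibitor A20 (1.37 ± 0.12, adjusted p = 1.09e-05), Traf3ip3 (1.08 ± 0.12, 4.76e-05), the kinase adaptor gene Tab2 (0.60 ± 0.08, 1.11e-04) and Cflar, which encodes the caspase-8 regulator cFLIP (0.77 ± 0.11, 2.60e-04). In CD4SP minus DP 8 were higher and 6 lower, against 16.4% and 16.2% of all genes. The TRAF-binding Tank was at 1.26 ± 0.10 (4.10e-06), the deubiquitinase gene Cyld at 0.90 ± 0.09 (2.32e-05), Traf5 at 1.26 ± 0.13 (2.59e-05) and the ubiquitin ligase gene Birc3 at 1.05 ± 0.14 (1.27e-04).

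CD8SP minus DP had 8 of the 24 higher and 7 lower, against 18.2% and 20.9% of all genes. Tnfaip3 was lower there by -1.60 ± 0.12 (adjusted p = 2.90e-06), Traf6 by -0.71 ± 0.07 (1.06e-05) and Tab2 by -0.61 ± 0.08 (8.06e-05), and Traf5 was higher by 1.25 ± 0.13 (2.36e-05). In CD4SP minus CD8SP 8 were higher and 0 lower, against 7.78% and 4.91% of all genes. Cyld was at 0.57 ± 0.09 (0.00285), Tnfaip3 at 0.64 ± 0.12 (0.00741), Tank at 0.50 ± 0.10 (0.00952) and Traf6 at 0.30 ± 0.07 (0.0131).

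Of 12 genes of the NF-κB module 10 were measured. Relb, the partner of p52 in the non-canonical pathway that many TRAF-binding receptors use, was higher in CD4SP than in DP by 3.87 ± 0.37 (adjusted p = 1.27e-05) and in CD8SP than in DP by 3.81 ± 0.37 (1.31e-05), and lower in DP than in DN by -1.18 ± 0.37 (0.0261). Nfkb2, the p52 precursor gene, was higher in CD4SP than in DP by 0.996 ± 0.13 (1.83e-04) and in CD8SP by 0.83 ± 0.13 (5.59e-04), and Rel by 1.18 ± 0.15 (9.06e-05) and 0.76 ± 0.15 (0.00171). In CD4SP minus DP 5 were higher and 1 lower, against 16.4% and 16.2% of all genes, with Map3k14, the kinase gene NIK, at 0.73 ± 0.15 (0.00351). In CD8SP minus DP 4 were higher and 1 lower, against 18.2% and 20.9%.

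DP minus DN had 2 of the 10 NF-κB genes higher and 3 lower, against 17.8% and 18.8% of all genes. The inhibitor gene Nfkbia was higher in DP than in DN by 1.56 ± 0.09 (adjusted p = 4.66e-07), while the inhibitor genes Nfkbib (-0.40 ± 0.11, 0.0153) and Nfkbie (-0.50 ± 0.15, 0.0229) were lower. Nfkbib was higher in CD8SP than in DP by 0.76 ± 0.11 (2.47e-04). It was the 1 gene of the 10 called in CD4SP minus CD8SP, at -0.42 ± 0.11 (0.0306), where 7.78% of all genes were called higher and 4.91% lower.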

How the data were processed

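The authors deposited log values, taken here to be log2 because no source used here states the base. Of the authors' processing, MAS5 is named per the submitters' processing notes, with neither version nor purpose. The values show that the DP average was subtracted from every probe set (its largest absolute remainder is 1.27e-06). Signal over background is lost, so dim probe sets could not be filtered. The number of arrays limits the precision.

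A single limma 3.58.1 fit (R 4.3.3; lmFit, contrasts.fit, eBayes without a trend) gave the 4 group means from all 12 arrays. It ran on the average of each gene's probe sets, and again on single probe sets for Tnfrsf9. P-values are two-sided, with Benjamini-Hochberg adjustment within each comparison over 18193 genes or 34945 probe sets. The fit was tested on simulated data. Groups and replicate numbers came from the sample titles. All 25 genes were found by gene ID in a RefSeq table (GRCm38.p6), the source of the promoter windows. Another 3 probe sets, whose several symbols include a Tnfsf or Tnfrsf gene, entered 1 alternative only. Alternatives changed the choice of probe set, the normalization, the array weights, a replicate block and the arrays left out.

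Values on each array are given for genes called with a difference of at least 1 and arrays that do not overlap, and for the Tnfrsf9 probe sets. Of each pathway list up to 4 genes with the lowest adjusted p per comparison are named. A few further genes and values were named after they were seen. Of 12 thymic stroma markers, 0 were higher and 3 lower in DP minus DN, against 17.8% and 18.8% of all genes. The members and lists were chosen with earlier results of these data known.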

Additional observations from a re-analysis of the deposited data

Results flagged for a closer look

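The changes of 3 genes relative to DP differed between CD4SP and CD8SP in the direct limma test of that difference. Tnfsf11 differed by 4.77 in CD4SP and 2.89 in CD8SP relative to DP, and the difference between these was 1.88 ± 0.33 (adjusted p = 0.00424), with all 3 CD4SP arrays above all 3 CD8SP arrays. Tnfrsf25 differed by 3.46 in CD4SP and 2.58 in CD8SP relative to DP, a difference of 0.89 ± 0.21 (adjusted p = 0.0205), also with no overlap of arrays. Tnfrsf23 went the other way, with 0.21 in CD4SP and 0.89 in CD8SP relative to DP, a difference of -0.67 ± 0.09 (adjusted p = 7.89e-04). The Tnfrsf23 call is lost with the probe set shared with Tnfrsf22 added (-0.38, adjusted p = 0.166) and under quantile normalization (-0.56, 0.135). With the shared probe set, Tnfrsf23 in CD4SP minus DP was 0.97 (adjusted p = 7.77e-04). The Tnfrsf25 call is lost under quantile normalization (0.65, adjusted p = 0.712) and without CD8SP replicate 1 (0.73, adjusted p = 0.057) or without any CD4SP array (0.88, 0.90 and 0.88, adjusted p between 0.0576 and 0.0646). Groups of 3 arrays were too small for a search for single outlying arrays.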

How the results depend on the processing

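Of the 42 called differences of members and Tnfrsf9 probe sets, 23 passed the threshold in every alternative run. Taking only the probe set with the smallest spread turned the sign of 4: Tnfrsf11a in DP minus DN was 0.088, and Tnfrsf9, read from 1421481_at alone, was 0.61 in DP minus DN, -0.30 in CD4SP minus DP and -0.24 in CD8SP minus DP. The number of genes higher in DP minus DN (2 as reported) was 4 with that probe set choice, 5 with the replicate block, 6 with the arrays numbered 1 as a factor, 4 with array weights and 1 after quantile normalization. The number lower in CD8SP minus DP (2) was 1 when only the highest-mean probe set was taken, after quantile normalization and after median centring. In CD4SP minus CD8SP, the number higher (2) was 1 after quantile normalization, and the number lower (1) was 2 with the smallest spread, the 6 arrays compared alone, the replicate block, the number 1 factor and median centring, 3 with array weights and without both arrays of lowest weight (DN replicate 1 and CD8SP replicate 1), and 0 after quantile normalization.

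Leaving out 1 array at a time, the counts higher and lower ranged from 1 to 3 and 6 to 10 in DP minus DN, 6 to 8 and 1 to 2 in CD4SP minus DP, 9 to 11 and 1 to 2 in CD8SP minus DP, and 1 to 3 and 1 to 2 in CD4SP minus CD8SP. Arrays with the same replicate number correlated between -0.03 and 0.16 in their deviations from the group means (18 pairs), and arrays with different numbers between -0.16 and 0.08 (36 pairs). The 6 pairs numbered 1 lay between 0.11 and 0.16, those numbered 2 between -0.03 and 0.09 and those numbered 3 between 0.02 and 0.14. All 6 pairs numbered 1 thus lay above all pairs with different numbers. Since pairs numbered 2 and 3 reached below 0.1, the numbers were not taken as pairing the samples. The main fit therefore has no term for an effect shared by arrays of the same number. With the replicate block, Tnfrsf8 in CD8SP minus DP (-0.51, adjusted p = 0.0524) was the 1 called difference of a gene that was lost. The block added Tnfrsf13b (0.52, adjusted p = 0.00232), Tnfsf14 (0.37, 0.0261) and Tnfsf9 (0.48, 0.0318) in DP minus DN, Tnfrsf13b in CD4SP minus DP (-0.29, 0.0384) and CD8SP minus DP (-0.46, 0.00394), and Tnfrsf13c in CD4SP minus CD8SP (-0.86, 0.0341). Fitting only the 6 arrays compared ended the DP minus DN calls of Tnfrsf12a, Tnfrsf23 and Tnfsf10 (adjusted p of 0.0545, 0.0583 and 0.0562), and quantile normalization those of Tnfrsf11a, Tnfrsf12a and Tnfrsf23 (0.0559, 0.162 and 0.297). Quantile normalization gives the DP arrays, whose centred values are narrow by construction, the same spread as the others. Over all genes it lowered the calls in DP minus DN from 3240 higher and 3420 lower to 1194 and 1943. In CD4SP minus CD8SP it lowered them from 1415 and 893 to 128 and 167. CD4SP minus CD8SP compares no DP arrays, and why the calls fell was not tested. A call lost under this setting was lost together with many others over all genes. Signal over background could not be read, so a small difference of a dim gene cannot be told apart from that of a bright one.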
